A study of Mus musculus with 12 samples.

Results

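Cytosolic chaperones and the chaperonin were described across 12 microarrays of mouse embryonic fibroblasts that lack TSC2 (TSC2-/- MEFs). The rule that picked the genes goes by symbol and uses no measured value, though it was set with earlier results of these data known. It takes subunits of the chaperonin and of prefoldin, HSP90 and its co-chaperones, HSP70 and HSP110 proteins, J proteins (HSP40), small heat shock proteins, BAG proteins and heat shock factors. The rule gave 58 of the 18193 genes with a single symbol on the array, held by 136 probe sets, and each gene is given by its brightest probe set. By role these were 9 chaperonin subunits, 5 prefoldin subunits, 1 HSP90 gene, 7 HSP90 co-chaperones, 8 HSP70 and HSP110 genes, 9 J proteins, 8 genes with small heat shock protein symbols, 6 BAG genes, 1 heat shock factor and 4 further symbol matches. Hsp90ab1, Ptges3 and Hsf1 were not analysed here.

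The study asked how mTOR and the coactivator PGC-1alpha govern genes of mitochondria in these fibroblasts. RNA of 4 groups was hybridised to MOE430 v2 gene chips from Affymetrix, with 3 arrays a group that are described in the series' design text as biological triplicates. One pair of groups received 20 nM rapamycin, an inhibitor of mTOR complex 1, for 14 h, or the DMSO vehicle for 14 h. The other pair was made of confluent cells exposed for 10 h to an adenovirus carrying PGC-1alpha or GFP, given fresh medium and collected 14 h afterwards. Every group was TSC2-/- and grown in DMEM with 10% CCS, so mTOR complex 1 lacked its upstream inhibitor in all of them, and no wild-type cells were among the groups. The 2 pairs were normalized separately by the authors and share no arrays, so levels were compared only inside a pair.

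Cytosolic chaperones bind unfolded or partly folded proteins and keep them from aggregating until they fold. HSP70 binds short hydrophobic stretches in cycles of ATP that J proteins start and HSP110 and BAG proteins end by nucleotide exchange, and STIP1 passes clients on to HSP90. The chaperonin, called CCT or TRiC, is a stacked pair of rings of related subunits that folds actin and tubulin, some of which prefoldin delivers. Many of these genes carry heat shock elements, the binding sites of heat shock factors.

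Promoters with such elements are shown for genes that take part in the changes described here. The element was searched as 3 adjoining units in alternate orientation, GAANNTTCNNGAA or TTCNNGAANNTTC, which are each other's reverse complement, so that both strands were covered. It was also searched as 2 units, GAANNTTC or TTCNNGAA, which every match of 3 units also holds. Promoter sequence ran from 250 bases before to 50 bases after each start in RefSeq (GRCm38.p6), and 51 of the 58 genes had an entry; those without one were Bag4, Cct4, Hsp90aa1, Hspa13, Hspa8, Hspb2 and Pfdn1. Among the 51 genes, 3 (5.88%) held the 3-unit form, and these were Hsph1, Chordc1 and Dnajb6. Of all 32851 promoters, 198 (0.603%) held it, and of the 27025 genes with a promoter entry, 179 (0.662%). Their windows are given 5′ to 3′ on the gene's strand, with the matched bases in capitals:
Hsph1, chr5:149636280-149636308, minus strand: gctgcagaTTCTGGAAAGTTCtcctcagt
Chordc1, chr9:18292255-18292293, plus strand: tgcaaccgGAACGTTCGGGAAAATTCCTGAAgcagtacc
Dnajb6, chr5:29735844-29735872, plus strand: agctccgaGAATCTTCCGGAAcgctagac

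The Hsph1 match lay 15 to 27 bases after one of its annotated starts and 36 to 48 bases after the other. In Chordc1, 3 overlapping matches ran together from 4 bases before to 18 bases after the start. The Dnajb6 match ended 34 bases before one start and 115 bases before the other. A pair of genes for inducible HSP70, Hspa1a and Hspa1b, is near-identical in this region, with the same base at 296 of 300 promoter positions (98.7%), and both held a single 2-unit match 104 to 97 bases before the start:
Hspa1a, chr17:34972233-34972280, minus strand: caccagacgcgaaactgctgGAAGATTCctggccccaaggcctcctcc
Hspa1b, chr17:34959315-34959362, minus strand: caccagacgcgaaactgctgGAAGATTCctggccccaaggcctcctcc

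The 2-unit form was in 20 of the 51 genes (39.2%), against 17% of all genes with an entry, 15% of the 14368 such genes measured on the array, and 15.1% of all promoters. A match is a description of letters and not a measured binding site.

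Probe sets of 49 members had a mean intensity over the 12 arrays above 78.9, the median over probe sets, and 9 were at or below it (Cct6b, Cct8l1, Dnajb3, Hsf2, Hspa12b, Hspa1a, Hspa1l, Hspb3 and Hspb9). All 10 fibroblast markers were bright, with means of 196.7 to 12047. Their summed intensity ran from 56196 to 60366 with rapamycin and from 54801 to 55890 with vehicle. It ran from 51211 to 51499 with PGC-1alpha and from 47079 to 50953 with GFP. With rapamycin 4 of the 10 rose (40%) and 0 fell, against 11.3% and 18% of all genes. No marker of another cell type is at 0, since array intensities have no zero. The brightest epithelial (721.9), neural (526.0), muscle (267.8) and leukocyte (219.5) markers had means above the dimmest fibroblast marker. The brightest endothelial marker (175.5) did not. The summed intensities with rapamycin and with vehicle ran from 1038 to 1089 and from 944 to 992 for the 6 epithelial markers. Of these 2 rose (33.3%), against 11.3% of all genes. In the same order, 5 leukocyte markers ran from 572 to 602 and from 545 to 608. The 5 endothelial markers ran from 300 to 316 and from 288 to 315. The 5 muscle markers ran from 572 to 596 and from 595 to 655, and Des fell. The 5 neural markers ran from 796 to 846 and from 849 to 951, and Nes fell. Each of these falls was 20% of its list, against 18% of all genes. The 3′ to 5′ ratio of the Gapdh control probe sets averaged 0.820 ± 0.011 on rapamycin arrays against 0.849 ± 0.011 on vehicle arrays, and 0.899 ± 0.006 on PGC-1alpha arrays against 0.875 ± 0.008 on GFP arrays (n = 3, SD), with no overlap inside either pair. The same ratio for beta-actin averaged 1.310 ± 0.011 with rapamycin and 1.309 ± 0.019 with vehicle, and 1.323 ± 0.008 with PGC-1alpha and 1.281 ± 0.031 with GFP (n = 3, SD), and its ranges overlapped inside both pairs. GFP replicate 3 stood apart: the SD of its log2 differences was 0.155 and 0.167 to the other GFP arrays and 0.142 to 0.151 to the PGC-1alpha arrays. The part of these shifts in the results was not tested.

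Much of the chaperone set was lower with rapamycin. Of the 58 genes, 25 fell (43.1%), 5 rose (8.62%) and 28 did not pass the test, against 18% and 11.3% of all 18193 genes that fell and rose. The median log2 change was -0.12 over the members and -0.015 over all genes. All 25 that fell were among the 49 members above the median probe set (51%), and 0 of the 9 others fell. Among all probe sets above that median, tested alone, 6040 fell and 4096 rose, against 6301 and 5168 of all 45037. Probe sets above a median are about as many as those below it. The shares that fell and rose were thus both higher above the median than over the whole array. The part of brightness in the shares was not tested. The fall was spread over the chaperonin, the HSP90 co-chaperones and the HSP70 and HSP110 group, while J proteins and small heat shock proteins were mixed. A gene is said to rise or fall when its two-sided limma test, adjusted by Benjamini-Hochberg over 45037 probe sets, gave a p below 0.05. The changes of the 25 lowered genes ran from -0.80 to -0.20 on the log2 scale, or 1.74-fold to 1.15-fold lower, and 3 of them reached 1.5-fold. In all 25 the rapamycin and vehicle arrays did not overlap, which was also so for 7 of the 28 that missed the threshold. Among all genes 24.6% had every rapamycin array below every vehicle array, and 18.4% of those that missed the threshold had no overlap in either direction. Scaled on the added control transcripts instead, the median of all probe sets moved by -0.19 and the members split into 1 raised and 40 lowered. Of all 45037 probe sets, 1448 were raised and 18556 lowered on that scale. At an unadjusted p under 0.05, 7 members were higher and 29 lower with rapamycin, against 15.6% and 22.6% of all genes. In the chaperonin, HSP90 co-chaperone, HSP70 and HSP110, and BAG groups, limma called 0 rises, and 0 members were higher at an unadjusted p under 0.05. These groups also had 0 rises on the control scale, but its downward shift of all probe sets left few rises anywhere. Bulk arrays cannot tell less RNA per cell from fewer cells of a type, and the p-values measure the spread between these arrays.

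**Figure D1:**
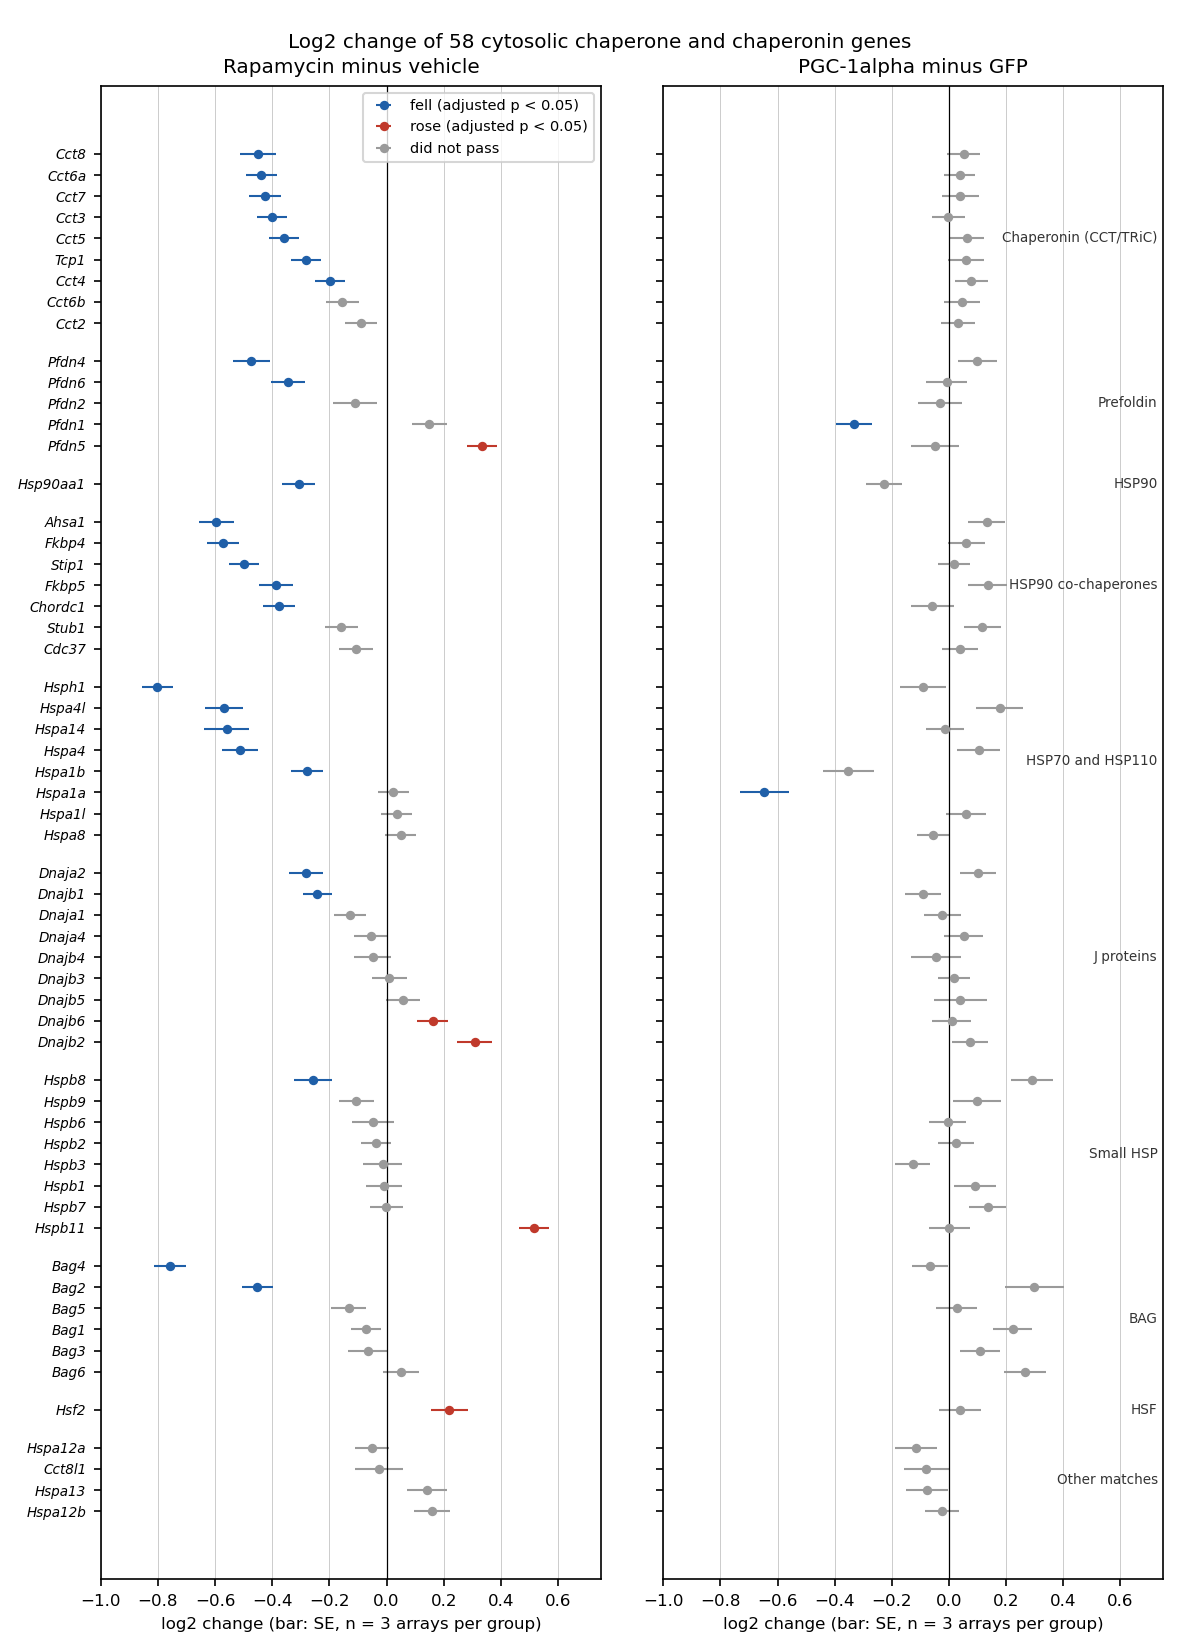
Log2 change of each of the 58 genes (rows, grouped by role) with rapamycin against vehicle (left) and PGC-1alpha against GFP (right); points are limma estimates, bars their SE (n = 3 arrays per group), and colour shows the test at an adjusted p of 0.05. The left panel has 25 genes that fell and 5 that rose, the right panel 2 that fell and none that rose.

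Most chaperonin subunits were lower with rapamycin. Of its 9 genes, 7 fell (77.8%, against 18% of all genes), none rose (against 11.3%), and the median was -0.36. For Cct8 the arrays read 2084, 2387 and 2221 with rapamycin and 3110.3, 3141 and 2887 with vehicle. It fell by 0.45 on the log2 scale (SE 0.063, adjusted p = 1.3e-04). Every rapamycin array was below every vehicle array for this subunit. Intensities of Cct6a were 4516, 4823 and 4768 with rapamycin and 6315, 6402 and 6381 with vehicle. Its log2 change came to -0.44 ± 0.053 (SE, adjusted p = 4.0e-05). Cct7 measured 2024, 2225 and 2075 with rapamycin, against 2792, 2825 and 2861 with vehicle. This was a log2 change of -0.42 ± 0.056 (SE, adjusted p = 7.7e-05). The values of both subunits were again separate, and their changes were close to that of Cct8. Cct3 had intensities of 4646, 4835 and 4648 with rapamycin, against 6142, 6158 and 6344 with vehicle. On the log2 scale it fell by 0.40 (SE 0.052, adjusted p = 7.3e-05). Cct5, Tcp1 (subunit alpha) and Cct4 fell as well, at -0.36 ± 0.053, -0.28 ± 0.054 and -0.20 ± 0.052 (SE), with adjusted p of 2.0e-04, 0.0015 and 0.012. Without vehicle replicate 2, Cct4 was at -0.18 with an adjusted p of 0.054.

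Cct2 and Cct6b did not pass. Cct2 (subunit beta) averaged 6739.6 ± 212 with rapamycin and 7175 ± 290.4 with vehicle (SD, n = 3 each), its arrays overlapped, and its change was -0.090 ± 0.056 (SE, adjusted p = 0.29). Cct6b, a paralogue of Cct6a used mainly in testis, was dim, at -0.15 ± 0.057 (SE, adjusted p = 0.062). The other probe sets differed for some subunits. For Cct3, 4 of 7 probe sets fell and the other three had group means between 49.5 and 184 with rapamycin or vehicle. For Cct4, 3 of 7 fell, and the 4 that did not have identifiers ending in x_at, which mark probes that can match other sequences. Besides the brightest, those that fell were dim, averaging 62.7 and 46.1 with rapamycin and 78.8 and 56.7 with vehicle. The Cct2 probe set given above also ends in x_at. The other Cct2 probe sets, which do not, were at -0.158 (adjusted p = 0.054, no overlap) and 0.001 (adjusted p = 0.99, overlap).

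Prefoldin, the jellyfish-shaped partner of the chaperonin, moved in both directions. Of 5 subunits, 2 fell (40%), 1 rose (20%) and 2 did not pass, against 18% and 11.3% of all genes that fell and rose. The median of the 5 was -0.11. Vbp1 (prefoldin subunit 3) was left out by the symbol rule and is described with the partners below. It fell by 0.37 (SE 0.059, adjusted p = 3.3e-04). For Pfdn4 the arrays read 1150.5, 1296 and 1302 with rapamycin and 1725, 1828 and 1649 with vehicle. The fall came to -0.47 ± 0.065 in log2 units (SE, adjusted p = 1.1e-04). Intensities of Pfdn6 were 1309.7, 1478 and 1435 with rapamycin and 1834, 1796 and 1724 with vehicle. The log2 change was -0.34 ± 0.060 (SE, adjusted p = 7.4e-04). Both had separate groups, rapamycin low. Pfdn5 measured 1409, 1489.9 and 1441 with rapamycin, against 1152, 1150.2 and 1141 with vehicle. It rose by 0.33 on the log2 scale (SE 0.052, adjusted p = 3.1e-04). Pfdn5, also known as the MYC-binding protein MM-1, thus had all rapamycin arrays above the vehicle arrays, and 4 of its 5 probe sets rose. Pfdn1 was at 0.15 ± 0.061 (SE, adjusted p = 0.096) and Pfdn2 at -0.11 ± 0.078 (SE, adjusted p = 0.37). Scaled on the control transcripts, 3 subunits fell and 0 rose, against 18556 and 1448 of all 45037 probe sets. Pfdn5 was then at 0.14 (adjusted p = 0.14).

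**Figure D2:**
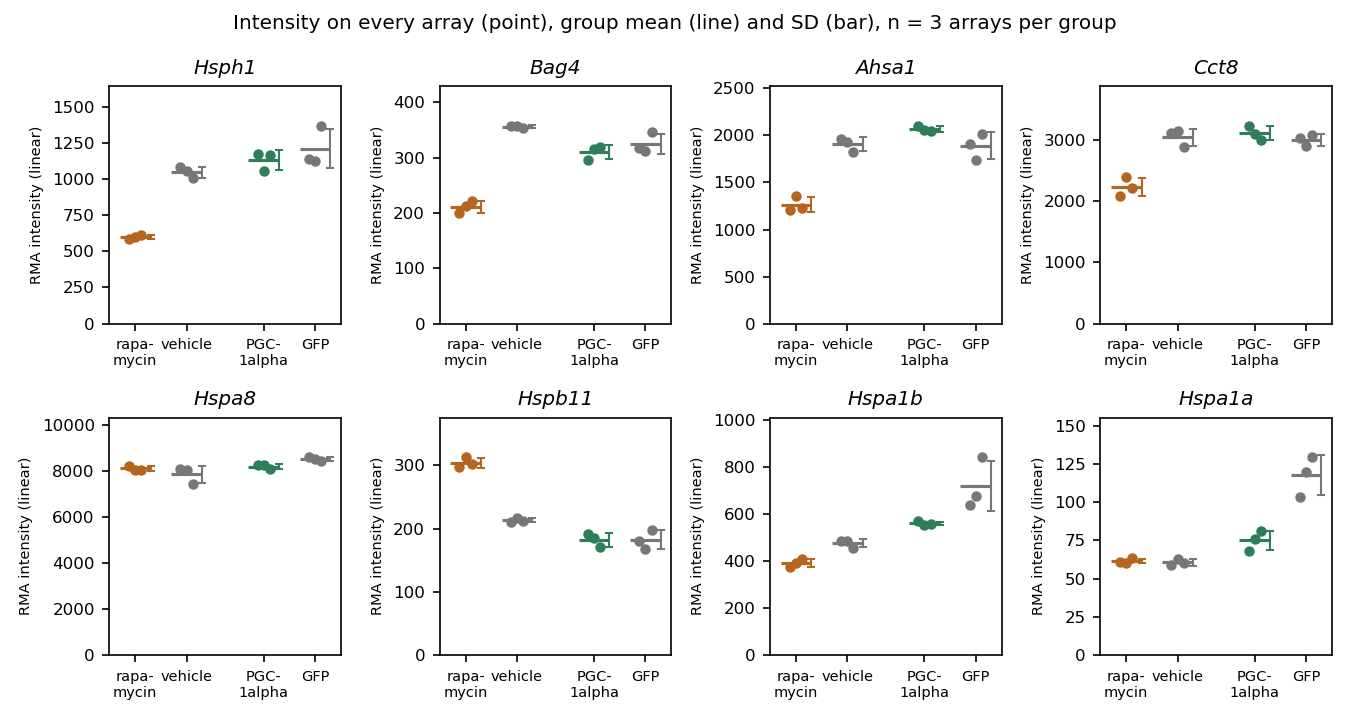
RMA intensity (linear, y axis from 0) of 8 genes on each array (points) in the rapamycin, vehicle, PGC-1alpha and GFP groups, with group mean (line) and SD (bar), n = 3. Hsph1, Bag4, Ahsa1 and Cct8 are low on all 3 rapamycin arrays, Hspb11 is high there, Hspa8 overlaps between rapamycin and vehicle, and Hspa1a is lower on the PGC-1alpha than on the GFP arrays.

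Hsp90aa1, the inducible cytosolic HSP90, fell with rapamycin. Hsp90aa1 had intensities of 4242, 4489.6 and 4168 with rapamycin, against 5358, 5561 and 5054 with vehicle. Its log2 change came to -0.31 ± 0.058 (SE, adjusted p = 0.0013). All 5 probe sets of the gene fell, by log2 changes between -0.45 and -0.15, though 2 of them were dimmer than the median over probe sets.

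Most HSP90 co-chaperones, which steer its ATP cycle and its clients, were lower with rapamycin. Of 7 genes, 5 fell (71.4%, against 18% of all genes), none rose (against 11.3%), and the median was -0.39. For Ahsa1 the arrays read 1206, 1354 and 1231 with rapamycin and 1964, 1934 and 1825 with vehicle. This was a log2 change of -0.60 ± 0.061 (SE, adjusted p = 1.0e-05). AHSA1 stimulates the ATPase of HSP90, and its gene had no rapamycin array near the vehicle range. Intensities of Fkbp4 were 1276, 1411 and 1311 with rapamycin and 1969, 2006 and 1957 with vehicle. On the log2 scale it fell by 0.57 (SE 0.056, adjusted p = 7.7e-06). Stip1 measured 852, 899.6 and 862 with rapamycin, against 1258, 1234 and 1199 with vehicle. The fall came to -0.50 ± 0.053 in log2 units (SE, adjusted p = 1.5e-05). FKBP4 is an immunophilin of steroid receptor complexes and STIP1 (HOP) bridges HSP70 and HSP90, and the groups of both genes were separate. Fkbp5 had intensities of 499.7, 568 and 519.6 with rapamycin, against 686, 687 and 698 with vehicle. The log2 change was -0.39 ± 0.059 (SE, adjusted p = 2.7e-04). Fkbp5, a related immunophilin, was lower on every rapamycin array too. Both immunophilins belong to the FK506-binding family that also binds rapamycin. Chordc1, one of the 3 genes with the 3-unit element, fell by 0.38 (SE 0.056, adjusted p = 2.4e-04). Stub1 (CHIP), a ubiquitin ligase for chaperone clients, was at -0.16 ± 0.058 (SE, adjusted p = 0.061), and Cdc37, which brings kinases to HSP90, at -0.11 ± 0.059 (SE, adjusted p = 0.23), while a dimmer Cdc37 probe set fell by 0.24 (adjusted p = 0.0044).

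The HSP70 and HSP110 group held the steepest fall of all members. Of 8 genes, 5 fell (62.5%, against 18% of all genes) and none rose (against 11.3%), and the median was -0.40. For Hsph1 the arrays read 585, 598 and 615 with rapamycin and 1079, 1053 and 1004 with vehicle. It fell by 0.80 on the log2 scale (SE 0.054, adjusted p = 5.3e-07). This gene encodes HSP105, an HSP110 nucleotide exchange factor; its rapamycin arrays were all far below the vehicle arrays, a 1.74-fold lower level, and the second probe set fell by 0.91. The relatives Hspa4l and Hspa4 (APG-1 and APG-2) moved the same way. Intensities of Hspa4l were 115, 125 and 126 with rapamycin and 194, 184 and 166 with vehicle. Its log2 change came to -0.57 ± 0.068 (SE, adjusted p = 3.4e-05). Hspa4 measured 1588, 1729.6 and 1545 with rapamycin, against 2359, 2393 and 2184 with vehicle. This was a log2 change of -0.51 ± 0.062 (SE, adjusted p = 3.8e-05). All 5 probe sets of Hspa4l fell. Hspa14 had intensities of 762, 846 and 786 with rapamycin, against 1234, 1276 and 1029 with vehicle. On the log2 scale it fell by 0.56 (SE 0.078, adjusted p = 1.3e-04). HSPA14 works at the ribosome with the J protein DNAJC2, and its rapamycin arrays were below all vehicle arrays.

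The HSP70 genes proper did not share one direction. For Hspa1b the arrays read 376, 391 and 411 with rapamycin and 486, 484 and 457 with vehicle. The fall came to -0.28 ± 0.057 in log2 units (SE, adjusted p = 0.0023). All 3 probe sets of Hspa1b fell. Intensities of Hspa1a were 60.9, 60.2 and 63.3 with rapamycin and 58.6, 62.7 and 60.3 with vehicle. That gave a log2 change of 0.023 ± 0.054 (SE, adjusted p = 0.83). Hspa1a arrays overlapped, and because the 2 genes are near-identical copies, how the signal divides between them is uncertain. Hspa8 measured 8246, 8079.6 and 8066 with rapamycin, against 8119, 8041 and 7435 with vehicle. Its log2 change was 0.049 ± 0.055 (SE, adjusted p = 0.6). Hspa8 encodes HSC70, the constitutive HSP70 that also removes clathrin coats; its groups overlapped, 3 of its 4 probe sets did not pass, and the other fell by 0.23 (adjusted p = 0.016). Hspa1l, a testis HSP70, was dim, at 0.035 ± 0.053 (SE, adjusted p = 0.71).

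J proteins were split. Of 9 genes, 2 fell (22.2%), 2 rose (22.2%) and 5 did not pass, against 18% and 11.3% of all genes that fell and rose. The median was -0.049. Dnaja2 had intensities of 2547, 2887 and 2694 with rapamycin, against 3199, 3376 and 3289 with vehicle. The log2 change was -0.28 ± 0.060 (SE, adjusted p = 0.0031). For Dnajb1 the arrays read 683, 711 and 682 with rapamycin and 815, 835 and 806 with vehicle. It fell by 0.24 on the log2 scale (SE 0.052, adjusted p = 0.0034). These partners of HSC70 and of inducible HSP70 had separate groups, rapamycin low. For Dnaja2, 3 of 4 probe sets fell and the other rose by 0.29. Intensities of Dnajb2 were 198, 211 and 196 with rapamycin and 165, 152 and 173 with vehicle. It rose by 0.31 on the log2 scale (SE 0.062, adjusted p = 0.0021). Dnajb6 measured 2100.5, 2289 and 2257 with rapamycin, against 1985, 1994 and 1959.7 with vehicle. It rose by 0.16 on the log2 scale (SE 0.055, adjusted p = 0.047). DNAJB2 delivers clients to the proteasome and DNAJB6 suppresses polyglutamine aggregation, and both were higher on every rapamycin array. The Dnajb6 call was lost on leaving out any vehicle array or rapamycin replicate 2 or 3, with adjusted p between 0.098 and 0.15. Its sign turned when scaled on the control transcripts (-0.028). Without that scaling, 3 of the 4 Dnajb6 probe sets rose, by 0.16, 0.25 and 0.31. The dimmest did not pass (0.14, adjusted p = 0.12). The remaining J proteins (Dnaja1, Dnaja4, Dnajb3, Dnajb4 and Dnajb5) ran from -0.13 to 0.058. The 3 probe sets of Dnaja1 disagreed: the brightest was at -0.13 (adjusted p = 0.11), another at 0.10 (adjusted p = 0.23), and the dimmest rose by 0.21 (adjusted p = 0.033). On the control scale 5 J proteins fell and 0 rose, against 18556 and 1448 of all 45037 probe sets. Dnajb2 was then at 0.12 (adjusted p = 0.23).

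The symbols of small heat shock proteins gave 1 fall (12.5%), 1 rise (12.5%) and 6 genes that did not pass, with a median of -0.026. The shares of all genes were 18% and 11.3%. Hspb11 had intensities of 298, 313 and 302 with rapamycin, against 211, 216 and 211 with vehicle. It rose by 0.52 on the log2 scale (SE 0.052, adjusted p = 9.7e-06). Hspb11 was the steepest rise of all members, with no overlap, but it encodes IFT25, an intraflagellar transport subunit, and is a small heat shock protein by symbol only. For Hspb8 the arrays read 685, 791 and 706 with rapamycin and 866, 819 and 920.4 with vehicle. The fall came to -0.26 ± 0.067 in log2 units (SE, adjusted p = 0.012). HSPB8 acts with BAG3 in selective autophagy of misfolded proteins; its rapamycin arrays were the lower ones, and the call was lost without rapamycin replicate 1 (-0.215, adjusted p = 0.054) or vehicle replicate 3 (-0.214, adjusted p = 0.054). Hspb1 (HSP25), a stress-inducible actin regulator, averaged 3603 ± 207 with rapamycin and 3626 ± 192 with vehicle (SD, n = 3 each), at -0.009 ± 0.062 (SE, adjusted p = 0.94). On the control scale 4 of the 8 genes fell and Hspb11 still rose, while 18556 of all 45037 probe sets fell and 1448 rose.

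BAG proteins are nucleotide exchange factors and adaptors of HSP70. Of the 6 genes, 2 fell (33.3%, against 18% of all genes), none rose, and the median was -0.10. Intensities of Bag4 were 199, 212 and 221 with rapamycin and 356, 358 and 354 with vehicle. The log2 change was -0.76 ± 0.056 (SE, adjusted p = 9.6e-07). Bag2 measured 254, 259.6 and 266 with rapamycin, against 348, 349 and 372 with vehicle. It fell by 0.45 on the log2 scale (SE 0.054, adjusted p = 3.7e-05). BAG4 is a silencer of death domains and BAG2 inhibits the ligase CHIP, and rapamycin arrays were low throughout for both. All 3 probe sets of Bag4 fell. Bag1, Bag3, Bag5 and Bag6 ran from -0.13 to 0.050 and did not pass. On the control scale 5 of the 6 genes fell, as did 18556 of all 45037 probe sets.

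Heat shock factor 2, which takes part in development and in the stress response beside factor 1, rose on a dim probe set. Hsf2 had intensities of 33.6, 31.2 and 30.7 with rapamycin, against 27.0, 25.7 and 29.5 with vehicle. It rose by 0.22 on the log2 scale (SE 0.064, adjusted p = 0.021). No array overlapped, and the call was lost without rapamycin replicate 1 (0.18, adjusted p = 0.086), vehicle replicate 1 (0.21, adjusted p = 0.071) or vehicle replicate 2 (0.175, adjusted p = 0.10). It was also lost with the mean of both probe sets (0.096, adjusted p = 0.26), the second of which averaged 11.7 ± 0.61 with rapamycin and 11.9 ± 0.94 with vehicle (SD, n = 3 each). Without either of those vehicle arrays 3 members rose in place of 5, and on the control scale Hsf2 was at 0.031 (adjusted p = 0.77). The 4 further symbol matches (Hspa12a, Hspa12b, Hspa13 and Cct8l1) did not pass. Of these, Hspa12b was at 0.16 ± 0.062 (SE, adjusted p = 0.079) and Hspa13, an HSP70 relative of microsomes, at 0.14 ± 0.069 (SE, adjusted p = 0.17).

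**Figure D3:**
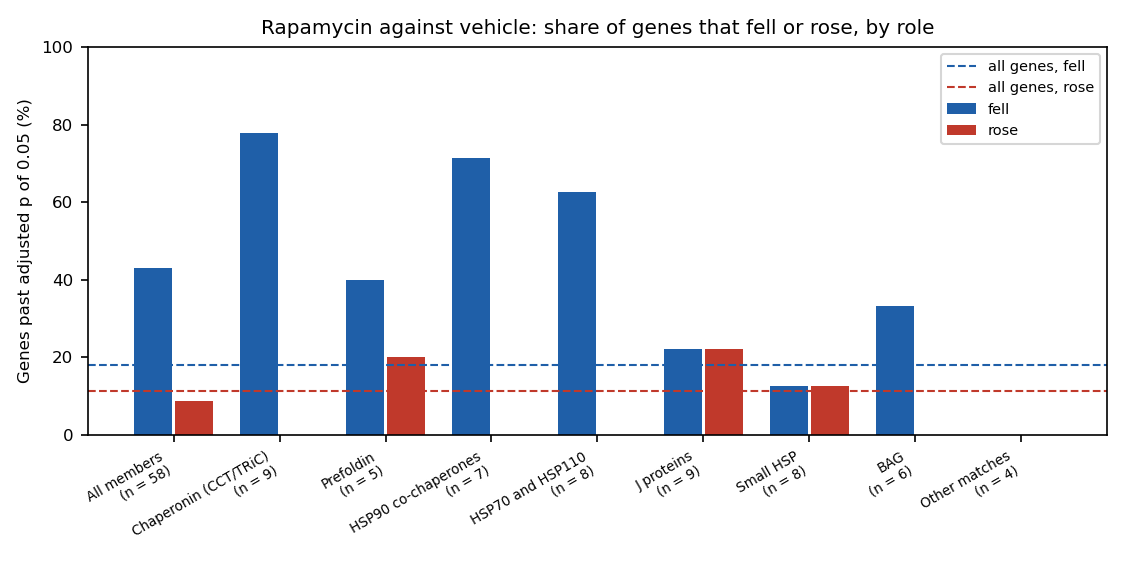
Share of genes (y axis, %) that fell or rose with rapamycin at an adjusted p of 0.05, for all 58 members and by role (single-gene roles left out); dashed lines give the shares among all 18193 genes, 18% and 11.3%. The chaperonin (77.8%), the HSP90 co-chaperones (71.4%) and the HSP70 and HSP110 group (62.5%) have the highest shares that fell among these roles.

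Of the 30 genes called with rapamycin, 22 had several probe sets. In 8 of them every probe set was called in the same direction (Bag4, Cct6a, Cct7, Dnajb1, Hsp90aa1, Hspa1b, Hspa4l and Hsph1). In another 7 more than 1 but not all were, and in 7 only the brightest was (Ahsa1, Cct8, Fkbp4, Fkbp5, Hsf2, Hspb11 and Hspb8). The second Ahsa1 probe set, for example, averaged 130.1 ± 5.03 with rapamycin and 133 ± 7.33 with vehicle (SD, n = 3 each). Dnaja2 was the one gene with a probe set called the opposite way. Promoter matches were counted among these calls too: 2 of 22 lowered genes with a promoter entry (9.09%) and 1 of 29 others (3.45%) held 3 units, and 7 (31.8%) and 13 (44.8%) held 2 units, given as counts with no test.

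**Figure D4:**
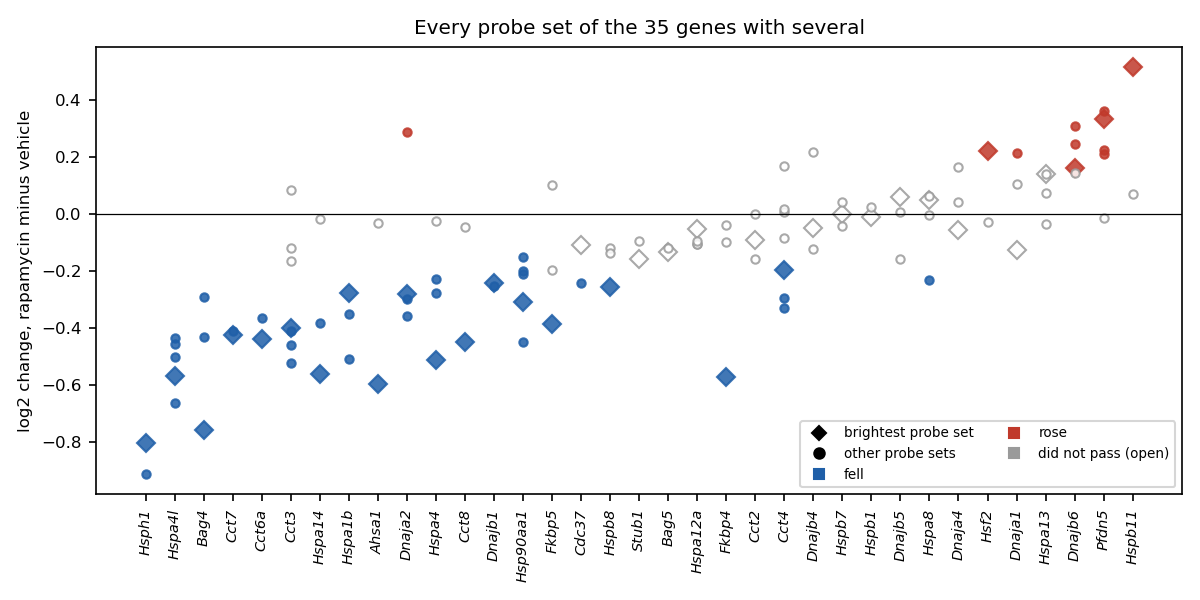
Log2 change with rapamycin against vehicle (y axis) for every probe set of the 35 genes that have several (x axis, sorted by the median of their probe sets); diamonds are the brightest probe set, circles the others, filled where an adjusted p of 0.05 was passed. All probe sets of Hsph1, Hspa4l and Bag4 lie below 0, while Cct4 and Dnaja2 have points on both sides.

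Genes that work with these chaperones were described from lists outside the members. Of 16 further HSP90 and HSP70 partners, 9 fell (56.2%) and none rose, with a median of -0.26. The shares of all genes that fell and rose were 18% and 11.3%. For Dnajc2 the arrays read 526, 572 and 529 with rapamycin and 962, 878 and 921 with vehicle. This was a log2 change of -0.76 ± 0.059 (SE, adjusted p = 1.3e-06). DNAJC2 is the ribosome-bound J protein that pairs with HSPA14, and its gene had separate groups. Intensities of Ruvbl2 were 1275, 1387 and 1404 with rapamycin and 2146, 2072 and 2084 with vehicle. On the log2 scale it fell by 0.63 (SE 0.057, adjusted p = 3.7e-06). Ruvbl1 measured 472, 522 and 466 with rapamycin, against 696, 707 and 674 with vehicle. The fall came to -0.51 ± 0.059 in log2 units (SE, adjusted p = 2.9e-05). These ATPases of the R2TP complex, which assembles large protein complexes with HSP90, were also low on every rapamycin array.

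Of 7 chaperonin and prefoldin partners, 2 rose (28.6%) and 1 fell (14.3%), against 11.3% and 18% of all genes. The median was -0.039. Uri1 had intensities of 1021, 1099.6 and 1016 with rapamycin, against 644, 648 and 625 with vehicle. It rose by 0.71 on the log2 scale (SE 0.055, adjusted p = 1.3e-06). URI1 is an unconventional prefoldin linked to mTOR signalling, and all its rapamycin arrays were high. For Vbp1 the arrays read 979, 1033 and 1086 with rapamycin and 1307, 1396 and 1308 with vehicle. It fell by 0.37 on the log2 scale (SE 0.059, adjusted p = 3.3e-04). Vbp1 (prefoldin subunit 3) was low on every rapamycin array. Intensities of Pdrg1 were 675, 701 and 666 with rapamycin and 609, 568 and 626 with vehicle. It rose by 0.18 on the log2 scale (SE 0.057, adjusted p = 0.031). Among 5 tubulin-folding cofactors 1 fell (20%, against 18% of all genes). It was Tbcb, at -0.29 ± 0.059 (SE, adjusted p = 0.0025), and the median of the 5 was 0.083.

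Actin and tubulin genes, whose products the chaperonin folds, went both ways, with 2 rises (22.2%) and 3 falls (33.3%) among 9. The shares of all genes were 11.3% and 18%, and the median of the 9 was -0.041. Tubg1 measured 324, 366 and 365 with rapamycin, against 545, 578 and 572 with vehicle. This was a log2 change of -0.69 ± 0.062 (SE, adjusted p = 3.8e-06). The gamma-tubulin gene was low on every rapamycin array. Tubb6 had intensities of 2223, 2493 and 2551 with rapamycin, against 3292, 3343 and 3218 with vehicle. On the log2 scale it fell by 0.44 (SE 0.061, adjusted p = 1.3e-04). For Tubb2b the arrays read 813, 842 and 866 with rapamycin and 622, 665 and 627 with vehicle. It rose by 0.40 on the log2 scale (SE 0.055, adjusted p = 1.2e-04). These beta-tubulin genes moved in opposite directions with separate groups. Actb and Actg1 were both at 0.068 ± 0.052 (SE, adjusted p = 0.41).

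Few members differed with adenoviral PGC-1alpha, a coactivator of mitochondrial and metabolic genes. Of the 58 genes, 2 fell (3.45%), none rose and 56 did not pass in the limma test, against 0.594% and 1.41% of all genes that fell and rose. The median change was 0.034 over the members and 0.007 over all genes. In 10 of the 56 the PGC-1alpha and GFP arrays did not overlap, though the test was not passed, and the same held for 14.1% of all genes that missed the threshold. At an unadjusted p under 0.05, 5 members were higher and 4 lower, against 8.88% and 3.31% of all genes, so the share of members that were higher was near that of all genes. Without GFP replicate 3, the array that stood apart, 5 members rose (Bag1, Bag2, Bag6, Hspa4l and Hspb8) and 3 fell (Hspa1a, Hspa1b and Pfdn1). Calls then grew over the whole array, to 1957 raised and 880 lowered of 45037 probe sets, in place of 449 and 430.

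The inducible HSP70 genes had the lowest changes of all members with PGC-1alpha. Intensities of Hspa1a were 68.2, 75.9 and 80.8 with PGC-1alpha and 104, 119.8 and 129 with GFP. The log2 change was -0.65 ± 0.086 (SE, adjusted p = 0.0026). All 3 PGC-1alpha arrays were below the GFP arrays, a 1.57-fold lower level on a probe set near the median brightness. Hspa1b measured 569, 554 and 559 with PGC-1alpha, against 640.0, 679 and 843 with GFP. That gave a log2 change of -0.35 ± 0.088 (SE, adjusted p = 0.069). The groups of Hspa1b did not overlap either, and it passed without GFP replicate 3 (-0.23, adjusted p = 0.031) and without GFP replicate 1 (-0.43, adjusted p = 0.049), with the same reservation on near-identical copies. The Hspa1a call held on leaving out each array and was lost when scaled on the control transcripts (-0.48, adjusted p = 0.088), a scaling that moved the median of all probe sets by 0.17. Pfdn1 had intensities of 701, 679.8 and 682 with PGC-1alpha, against 821, 848 and 934 with GFP. It fell by 0.33 on the log2 scale (SE 0.063, adjusted p = 0.019). Pfdn1, the beta-type prefoldin subunit, had separate groups, and its adjusted p was between 0.063 and 0.10 without GFP replicate 2 or without any one PGC-1alpha array. Scaled on the control transcripts it was at -0.165 (adjusted p = 0.50). For Hspa13, the brightest of 4 probe sets did not pass, while 2 others fell by 0.45 (adjusted p = 0.0017) and 0.31 (adjusted p = 0.028).

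Hsp90aa1, the HSP90 gene, missed the threshold. For Hsp90aa1 the arrays read 5707, 5222 and 5053 with PGC-1alpha and 6150.0, 6136 and 6403 with GFP. The limma estimate on the log2 scale was -0.23 ± 0.063 (SE, adjusted p = 0.1). On this probe set the PGC-1alpha arrays were all below the GFP arrays. A second bright probe set of Hsp90aa1 had all PGC-1alpha arrays above the GFP arrays (0.126, adjusted p = 0.47), and another overlapped (-0.038, adjusted p = 0.90), so the gene had no single direction. Among small heat shock proteins Hspb8 was nearest to the threshold. Intensities of Hspb8 were 834, 806 and 815 with PGC-1alpha and 651, 612 and 753 with GFP. That gave a log2 change of 0.29 ± 0.074 (SE, adjusted p = 0.077). Every PGC-1alpha array was above every GFP array, and without GFP replicate 3 this probe set rose (0.37, adjusted p = 0.0032). The other Hspb8 probe sets overlapped between the groups, at 0.10 (adjusted p = 0.69) and -0.038 (adjusted p = 0.92). Hspb3, next in that role, was dim, at -0.13 ± 0.061 (SE, adjusted p = 0.46).

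The 6 BAG genes had a median of 0.17 in PGC-1alpha cells. Bag6 measured 715, 709 and 700.2 with PGC-1alpha, against 530.4, 586 and 657 with GFP. Its log2 change was 0.27 ± 0.074 (SE, adjusted p = 0.11). BAG6 guides tail-anchored and misplaced membrane proteins, and its groups were separate. Bag1 had intensities of 1225, 1167 and 1153 with PGC-1alpha, against 978, 952 and 1114 with GFP. The limma estimate on the log2 scale was 0.22 ± 0.069 (SE, adjusted p = 0.16). Bag1 was also higher on every PGC-1alpha array. Without GFP replicate 3, where calls grew over the whole array, Bag6, Bag1 and Bag2 rose. Their changes were 0.345 (adjusted p = 0.0066), 0.29 (adjusted p = 0.012) and 0.42 (adjusted p = 0.012).

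The chaperonin subunits all lay between -0.002 and 0.078, with no gene passing and a median of 0.046. For Cct4 the arrays read 5174, 4864 and 4971 with PGC-1alpha and 4720.1, 4602 and 4898 with GFP. That gave a log2 change of 0.078 ± 0.058 (SE, adjusted p = 0.72). Intensities of Cct5 were 4119.7, 3945 and 3871 with PGC-1alpha and 3788, 3652 and 3992 with GFP. Its log2 change was 0.063 ± 0.060 (SE, adjusted p = 0.81). The arrays of both subunits overlapped between groups. The HSP90 co-chaperones lay between -0.058 and 0.135, led by Ahsa1 (0.13 ± 0.065, SE, adjusted p = 0.48) and Fkbp5 (0.135 ± 0.069, SE, adjusted p = 0.50). J proteins lay between -0.092 and 0.10, led by Dnaja2 (0.10 ± 0.063, SE, adjusted p = 0.62) and Dnajb1 (-0.092 ± 0.063, SE, adjusted p = 0.67). Hsf2 was at 0.039 ± 0.073 (SE, adjusted p = 0.92), and Hspa12a at -0.12 ± 0.073 (SE, adjusted p = 0.63). Of the partner genes 1 rose, Dnajc2. Dnajc2 measured 1045, 937 and 925 with PGC-1alpha, against 744, 734 and 801 with GFP. It rose by 0.35 on the log2 scale (SE 0.067, adjusted p = 0.019). All PGC-1alpha arrays of Dnajc2 were above the GFP arrays, and this gene fell with rapamycin. These misses do not show that PGC-1alpha and GFP cells were alike in these genes.

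The 2 changes were also set against each other in a limma fit over all 12 arrays, as the rapamycin change minus the PGC-1alpha change. They differed for 28 of the 58 genes (48.3%), 24 with the lower value under rapamycin and 4 with the higher, against 24.1% of all genes in either direction. The median difference was -0.155 over the members and -0.018 over all genes. No member passed the test in both comparisons, but only 2 passed with PGC-1alpha, so few shared calls were possible. Bag2 differed by -0.75 (adjusted p = 1.7e-04), Hspa4l by -0.75 (adjusted p = 6.6e-05), Ahsa1 by -0.73 (adjusted p = 8.9e-06) and Hsph1 by -0.71 (adjusted p = 3.7e-05). Hspa1a differed by 0.67 (adjusted p = 1.2e-04), Hspb11 by 0.51 (adjusted p = 3.0e-04), Pfdn1 by 0.48 (adjusted p = 4.5e-04) and Pfdn5 by 0.38 (adjusted p = 0.0099).

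By role, 7 of 9 chaperonin subunits and 6 of 7 HSP90 co-chaperones had the lower change with rapamycin. So had 4 of 8 HSP70 and HSP110 genes, 3 of 6 BAG genes and 1 of 9 J proteins. Among 5 prefoldin subunits 2 had the lower and 2 the higher change. Among 8 small heat shock protein symbols it was 1 and 1, and in the HSP70 and HSP110 group Hspa1a had the higher change. For Hspa1b and for the brightest probe set of Hsp90aa1 the difference did not pass. Hspa1b was at -0.28 with rapamycin and -0.35 with PGC-1alpha (difference 0.073, adjusted p = 0.73), and Hsp90aa1 at -0.31 and -0.23 (difference -0.081, adjusted p = 0.60). The second bright probe set of Hsp90aa1 differed by -0.576 (adjusted p = 4.3e-05), with -0.45 under rapamycin and 0.126 under PGC-1alpha.

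**Figure D5:**
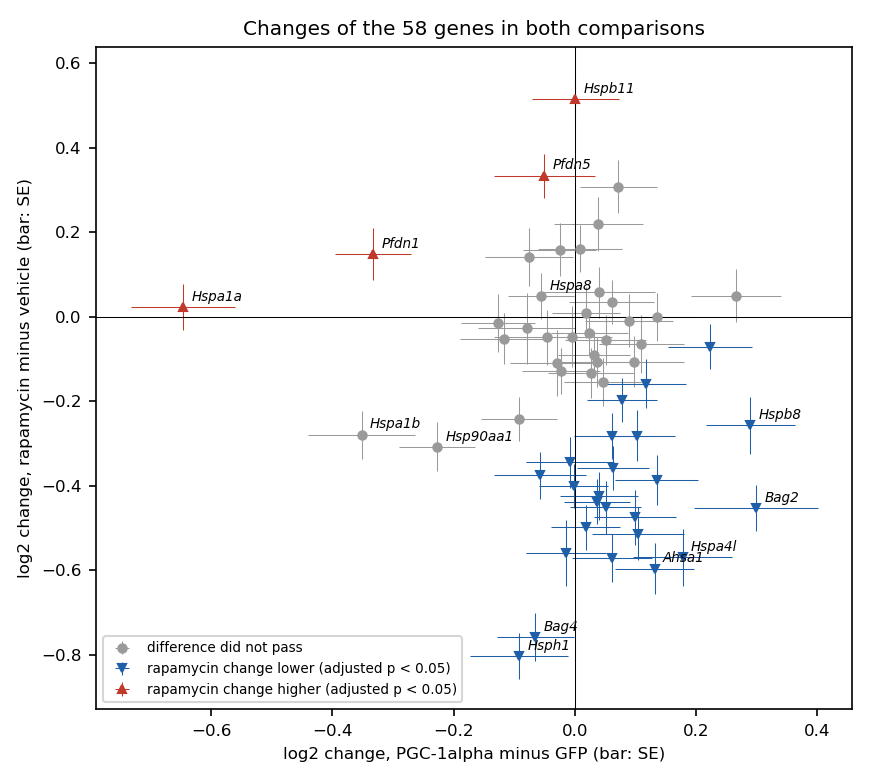
Log2 change with rapamycin against vehicle (y axis) plotted against log2 change with PGC-1alpha against GFP (x axis) for the 58 genes; bars are SE (n = 3 arrays per group) and triangles mark a difference between the 2 changes at an adjusted p of 0.05. The 24 downward triangles lie below 0 on the y axis, and Hspa1a and Pfdn1 lie at the left.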

How the data were processed

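Total RNA of 12 samples in 4 groups of 3 was measured on Affymetrix MOE430 v2 arrays. Each deposited value is the intensity of a probe set, which the authors made with RMA at default settings in BioConductor 1.2, in 1 batch for rapamycin and vehicle and another for PGC-1alpha and GFP, per the labels and the text on the series' design. Whether they are linear or log values is not stated there; intensities ran from 9.30 to 21072 with array medians of 77.5 to 81.0, so they were read as linear. Quantile normalization within a batch hides a change in total RNA, and changes are read relative to the rest of the array. There were no detection calls, so a dim probe set may be background, and precision is limited by the number of arrays.

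Groups came from the sample labels. Of 45101 probe sets, 64 controls were dropped and the remaining 45037 tested, without a pseudocount and without a filter on dim values. Genes were named by the platform annotation updated to RefSeq GRCm38.p6: 34945 probe sets had 1 symbol, 932 several and 9160 none, and only the first kind was named. The brightest probe set by mean log2 value over 12 arrays stood for each gene. limma 3.58.1 (lmFit, eBayes) in R 4.3.3 was fitted on log2 values per comparison, two-sided, with Benjamini-Hochberg adjustment over 45037 probe sets and a threshold of 0.05. The difference between the changes was a contrast over all 12 arrays. The fits were tested on simulated data. Tables were handled in Python 3.11.15 (pandas 2.3.3) and figures drawn with matplotlib 3.10.9.

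The members, roles, partner and marker lists were chosen with earlier results of these data known. Full values are given, per role and comparison, for up to 4 genes past the threshold with the steepest change and for the steepest one in the other direction, or for the pair with the smallest p where none passed; partner lists give up to 3. Cct2, Hspa1a, Hspa8, Hspb1 and others that missed the threshold were added. Alternatives were quantile normalization over 12 arrays, scaling on 18 spiked control probe sets, only probe sets above the median level, log2 of the value plus 16, an intensity trend in eBayes, the replicate number as a block, the mean of all probe sets of a gene, the brightest probe set over the 6 arrays compared, and leaving out each array.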

Additional observations from a re-analysis of the deposited data

How the results depend on the processing

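Of the 25 members that fell with rapamycin, 23 were called under every alternative in which they were tested; Cct4 was lost with the mean of all probe sets (-0.10, adjusted p = 0.087), and it and Hspb8 were lost without 1 array. Of the 5 that rose, 1 (Hspb11) was called under every alternative. On the scale of the spiked controls, whose mean log2 intensity was 10.62 to 10.83 with rapamycin and 10.50 to 10.60 with vehicle, 1448 probe sets rose and 18556 fell with rapamycin, in place of 5168 and 6301. The members then split into 1 raised and 40 lowered, with a median of -0.308, and Dnajb6 reversed to -0.028. With PGC-1alpha this scale gave 296 raised and 29 lowered probe sets, in place of 449 and 430, with no member called and a median of 0.203; 39 members then differed between the changes, in place of 28. The cause was not tested. Quantile normalization over 12 arrays gave 1 raised and 4 lowered members with PGC-1alpha. Probe sets above the median level alone gave 1 raised member with PGC-1alpha and a rapamycin median of -0.197. Adding 16 before the log gave 295 raised probe sets with PGC-1alpha.

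Leaving out 1 array gave 3 to 5 raised and 24 to 26 lowered members with rapamycin, with a median of -0.146 to -0.103. With PGC-1alpha it gave 0 to 5 raised and 1 to 3 lowered members, a median of -0.001 to 0.047, and 113 to 1957 raised and 166 to 880 lowered probe sets. The highest counts, 1957 and 880, came without GFP replicate 3, and the negative median without GFP replicate 2. The replicate numbers are not said to pair the arrays. Deviations of arrays with one number correlated between -0.133 and 0.231, and those with unlike numbers between -0.216 and 0.206. With so few arrays these ranges cannot settle whether any were paired. With the replicate number as a block 4 members rose (Dnajb6 was lost, adjusted p = 0.063) and 25 fell with rapamycin, 0 and 2 with PGC-1alpha, and the probe sets raised and lowered numbered 5128 and 6243, and 436 and 395.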
